A study of Sus scrofa with 3 samples.

Results

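The miR-181 family was followed in growing pig muscle, with the mature miRNAs of both arms of its hairpins. Its members were the known miRNA names of the deposited files written as miR-181, under any letter, arm or species prefix, and 11 of 1162 names met this rule. All 11 were listed in each of the 3 libraries, in 13 or 14 file rows per library, since a name has a row for each hairpin. Of these names, 5 belong to the 5p arm and 6 to the 3p arm. The names listed with the porcine prefix (ssc) were ssc-miR-181a, ssc-miR-181b, ssc-miR-181c and ssc-miR-181d-5p. The other names were borrowed by the authors' pipeline from human (hsa), opossum (mdo) or mouse (mmu) entries.

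Small RNA was sequenced from the psoas major, the tenderloin muscle under the lumbar spine. The animals were castrated male pigs of a Landrace × Large White × Duroc cross, killed at 63, 98 or 161 d of age. Per the study, the diet held less protein and available lysine at each heavier weight stage. Food was withheld in the night before slaughter, and no other treatment is described. Age and the diet of the weight stage therefore cannot be told apart. Equal amounts of RNA from 6 pigs were pooled for each age, so that every age had 1 library and no difference below has a replicate check. The libraries listed 1464699, 2418187 and 2242716 reads at 63, 98 and 161 d, of which ssc-miR-133a-3p alone held 36.2 to 44.0%. Whole muscle was used, so that fewer cells of a type and less RNA per cell cannot be told apart.

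A miRNA is cut from a hairpin whose 5p and 3p arms pair with each other. Usually 1 arm is kept in the silencing complex and the other, the passenger, is mostly degraded, and the bases from position 2 to position 8 of the kept strand, the seed, direct pairing with target mRNAs. The miR-181 family is known for setting the sensitivity of developing T lymphocytes to antigen, and in muscle for its rise during myoblast differentiation.

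The 5p reads are shown first because they carry most of the family and share 1 seed. Each sequence is the representative read of the name in its deepest row, written 5′ to 3′ as DNA letters, with the seed in capitals.
ssc-miR-181a: aACATTCAacgctgtcggtgagt
ssc-miR-181b: aACATTCAttgctgtcggtgggt
ssc-miR-181c: aACATTCAacctgtcggtgagtt
ssc-miR-181d-5p: aACATTCAttgttgtcggtgggtt
mdo-miR-181b-5p: aACATTCAttgctgtcggtgggttgt
All 5 held the seed ACATTCA, and no name outside the family had it in its representative read in any library. With positions counted from 1 at the 5′ end and the base of the name given earlier written before the position, ssc-miR-181b differed from ssc-miR-181a by A9T, C10T and A21G, and ssc-miR-181d-5p differed from ssc-miR-181b by C12T. The read of ssc-miR-181c equalled that of ssc-miR-181a over 22 bases once the G at position 11 of ssc-miR-181a was left out. The 5p names therefore differed outside the seed.

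The 3p reads are shown because their seeds separate hairpins mir-181a-1 and mir-181a-2, which the 5p reads leave joined. The seeds do not separate the miR-181b hairpins. hsa-miR-181b-3p and mmu-miR-181b-2-3p each held CTCACTG and TCACTGA in different libraries, by a shift of the read start, with at most 3 copies. hsa-miR-181a-2-3p held CCATCGA only at 98 d, in 2 copies, where all its reads carried a mapping error. At 63 and 161 d its read held CCACTGA, in 1 copy each.
hsa-miR-181a-3p: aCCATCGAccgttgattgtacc
mdo-miR-181a-2-3p: aCCACCGAccgttgactgtacc
hsa-miR-181c-3p: aCCATCGAccgttgagtggacc
hsa-miR-181b-3p: cTCACTGAacaatgaatgcaat
mmu-miR-181b-2-3p: aCTCACTGatcaatgaatgcaa
hsa-miR-181a-2-3p: aCCATCGAccgttgactgtacct
The 3p arms of hairpins mir-181a-1 and mir-181c shared the seed CCATCGA, and the main read of the mir-181a-2 arm had CCACCGA, which no representative read outside the family held. The change from hsa-miR-181a-3p to mdo-miR-181a-2-3p was T5C and T16C, so that T5C lay in the seed, and the change from hsa-miR-181a-3p to hsa-miR-181c-3p was T16G and T19G, both behind it. The pig read of the mir-181a-2 arm also departed from the entries of other species on which its name rests: with positions counted on the pig read and the base of the entry written before the position, it differed from the known opossum sequence by T5C and G20A, and from the known human sequence by T6C. The borrowed prefix names an entry of another species and not the animal, and for this arm not the entry with the fewest differences.

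The deposited files placed the 6 pig hairpins in 3 pairs. The genome build behind their coordinates is not given in the sources used here. The chromosomes were taken from the RefSeq table of Sscrofa11.1, which lists the same 6 genes, and no coordinates of that build were used. Hairpins mir-181a-1 and mir-181b-1 lay on chromosome 10, on the minus strand and 53 bases apart. Hairpins mir-181a-2 and mir-181b-2 lay on chromosome 1, on the plus strand and 1778 bases apart, and hairpins mir-181c and mir-181d lay on chromosome 2, on the minus strand and 69 bases apart. The hairpins with reads of both arms of miR-181a or miR-181c are given on the strand of the miRNA, with the representative reads of both arms in capitals.
ssc-mir-181a-1, chr10:26427015-26427122: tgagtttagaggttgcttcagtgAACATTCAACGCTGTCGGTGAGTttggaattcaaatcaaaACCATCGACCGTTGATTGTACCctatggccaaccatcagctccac
ssc-mir-181a-2, chr1:299322123-299322232: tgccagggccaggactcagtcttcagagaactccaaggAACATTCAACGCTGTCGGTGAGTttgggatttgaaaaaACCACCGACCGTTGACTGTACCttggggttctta
ssc-mir-181c, chr2:65553658-65553760: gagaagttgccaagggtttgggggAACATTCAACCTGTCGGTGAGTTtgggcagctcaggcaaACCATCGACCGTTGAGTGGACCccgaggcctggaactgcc
Both mir-181a hairpins gave the same 5p read and different 3p reads. Where a read fitted more than 1 hairpin, the files gave each hairpin a part of it, so the 5p reads of ssc-miR-181a came out nearly equal at both hairpins, for example 13413 and 13549 reads at 63 d. This division says nothing of the activity of either hairpin, and the rows of a name were summed.

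The family was abundant, and ssc-miR-181a held most of it. Levels below are normalised reads, the reads of all isoforms divided by a scaling factor of the library. The factor was the median ratio over 424 names with at least 10 reads in every library. The 5p reads of the family summed to 42869, 27785 and 44008 normalised reads at 63, 98 and 161 d, against 1225, 1639 and 3102 for the 3p reads. The 5p sum was lowest at 98 d and nearly the same at both other ages, while the 3p sum was higher at each later age.

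Among the 5p names, ssc-miR-181a stood at 36942, 23057 and 38073 normalised reads in the order of age (26962, 31249 and 38169 reads). It ranked 9th, 12th and 10th among the 801, 915 and 867 names with any reads. Against 63 d its level was 0.624-fold at 98 d (95% interval 0.614 to 0.634) and 1.03-fold at 161 d (1.01 to 1.05), the latter 0.925-fold with CPM (counts divided by the reads listed in the library). Between the later ages the fold change was 1.65 (1.63 to 1.68). All intervals are exact Clopper-Pearson intervals of the conditional binomial for fold changes and Wilson intervals for shares. They cover counting error only and not the spread between pigs or libraries. The dip at 98 d and the return by 161 d stayed within 2-fold.

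ssc-miR-181b followed at 5315, 4109 and 4784 normalised reads, with fold changes of 0.773 (0.742 to 0.806) up to 98 d and 1.16 (1.12 to 1.21) in the later interval. It too was lowest at 98 d, over a narrower range than ssc-miR-181a, but with CPM its fold change in the later interval was 0.929 and the 161 d library was the lowest. ssc-miR-181d-5p, cut from the hairpin beside mir-181c, was listed at 244, 167 and 206.1 normalised reads, with fold changes of 0.685 (0.559 to 0.837) and 1.23 (1.02 to 1.502), the latter 0.984 with CPM. Its counts hold fractions, as do those of ssc-miR-181b, since some isoform reads were divided between hairpins.

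ssc-miR-181c was the 5p name with another course. It stood at 363, 449 and 943 normalised reads (265, 609 and 945 reads), and its rank moved from 165th to 151st and 99th. The fold change was 1.24 (1.07 to 1.44) up to 98 d, 2.10 (1.89 to 2.33) in the later interval and 2.60 (2.26 to 2.99) over the whole span. The 161 d library was thus the highest for ssc-miR-181c, and its interval against each earlier age lay above 1. The remaining 5p name, mdo-miR-181b-5p, was listed at 4, 3 and 2 reads and had the same first 23 bases as ssc-miR-181b.

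**Figure D1:**
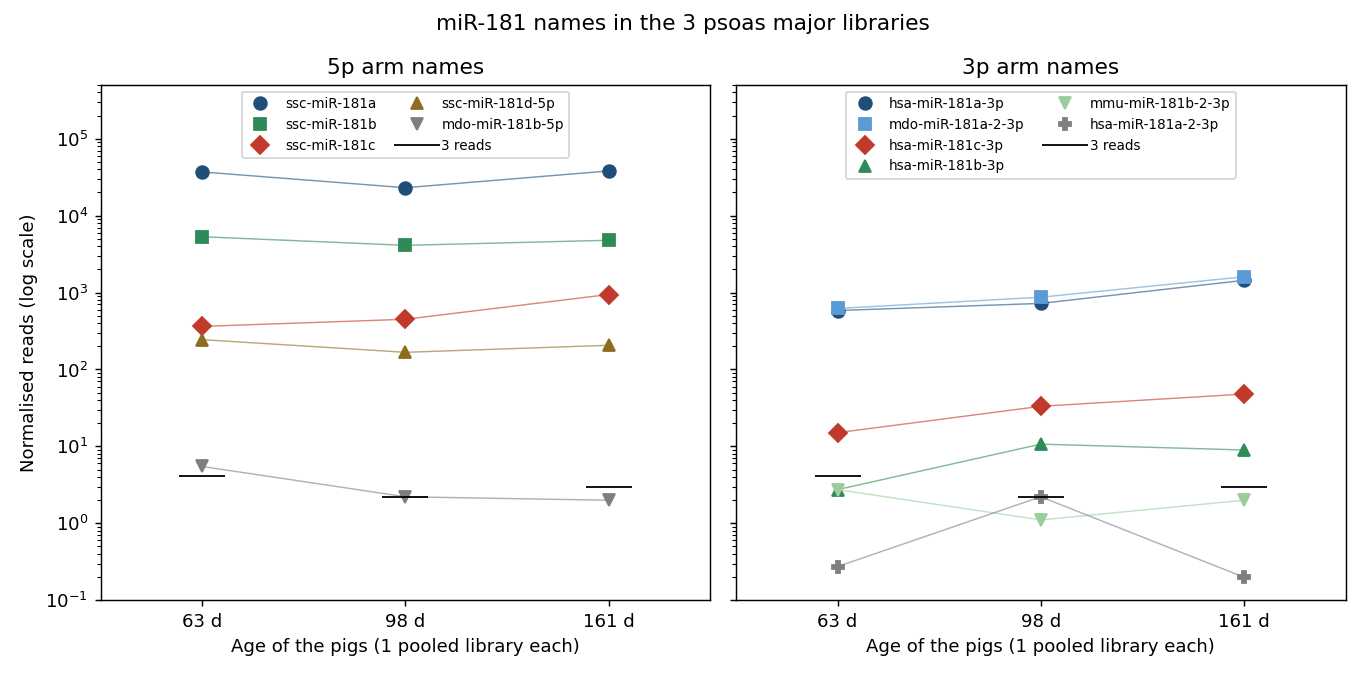
Normalised reads of the 11 miR-181 names (log axis) in the libraries of 63, 98 and 161 d, 5p names on the left and 3p names on the right, with short bars at the level of 3 reads in each library. Lines join the values of a name across ages. ssc-miR-181a dipped from 36942 to 23057 at 98 d and stood at 38073 at 161 d, whereas ssc-miR-181c, hsa-miR-181a-3p, mdo-miR-181a-2-3p and hsa-miR-181c-3p were higher at each later age.

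The abundant 3p names of miR-181a, hsa-miR-181a-3p and mdo-miR-181a-2-3p, were higher at each later age. hsa-miR-181a-3p, the 3p arm of hairpin mir-181a-1, stood at 584, 722 and 1441 normalised reads (426, 979 and 1445 reads), and mdo-miR-181a-2-3p, that of hairpin mir-181a-2, at 621, 870 and 1602 (453, 1179 and 1606 reads). The latter name includes 2 reads at 63 d and 7 at 161 d of another row with the seed CCATCGA. From 63 to 98 d the fold change was 1.24 (1.10 to 1.39) for the former and 1.40 (1.26 to 1.57) for the latter. From 98 to 161 d it was 1.995 (1.84 to 2.17), just short of 2-fold, and 1.84 (1.71 to 1.99), or 1.59 and 1.47 with CPM. From 63 to 161 d it was 2.47 (2.21 to 2.76) and 2.58 (2.32 to 2.87). Both names thus took nearly the same course, although their hairpins lie on different chromosomes.

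Unlike the 5p reads, these 3p reads could be assigned to a hairpin. Of the reads of all isoforms in the 3p rows of both hairpins, mir-181a-1 gave 48.6% (45.3 to 51.9), 45.4% (43.3 to 47.5) and 47.5% (45.7 to 49.2) in the order of age, with intervals that overlapped between all libraries. Of the copies of the representative reads alone, it gave 51.2% (47.4 to 55.0), 47.4% (45.1 to 49.8) and 50.2% (48.2 to 52.1). Each hairpin thus gave a similar part of the 3p reads of miR-181a, and which of them gave more depended on the column counted at 63 and 161 d.

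hsa-miR-181c-3p was scarce, at 15.1, 33.2 and 47.9 normalised reads (11, 45 and 48 reads). Its fold change was 2.20 (1.12 to 4.72) up to 98 d, 1.44 (0.940 to 2.22) in the later interval and 3.18 (1.63 to 6.78) over the whole span. The order of the ages was that of ssc-miR-181c, with wider intervals. hsa-miR-181b-3p was listed at 2, 14.5 and 9 reads and had a fold change of 0.839 (0.332 to 2.16) from 98 to 161 d, which was not distinguishable from no change at this depth. mmu-miR-181b-2-3p (2, 1.5 and 2 reads) and hsa-miR-181a-2-3p (0.2, 3 and 0.2 reads) stood at or under 3 reads in each library, so no fold change is given for them. No 3p name of miR-181d was listed.

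Only names with a mean of at least 10 reads over a pair of ages were read against the 2-fold limit. The study used the same fold limit together with a limit on the p-value, which was not applied here. mdo-miR-181b-5p, mmu-miR-181b-2-3p and hsa-miR-181a-2-3p stayed below this minimum in every pair, and hsa-miR-181b-3p passed it only from 98 to 161 d. The 3 pairs share their libraries and are given side by side for that reason.

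From 63 to 98 d, 1 of 7 members was more than 2-fold higher, hsa-miR-181c-3p, beside 9.61% of 489 names, and 0 members were below 0.5-fold, beside 9.2%. The median fold change of the members was 1.24 and that of all names tested was 1.01. Within the family the arms went apart, with the 5p sum at 0.648 (0.638 to 0.658) and the 3p sum at 1.34 (1.24 to 1.45). ssc-miR-181c was the 5p name above 1 in this pair.

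From 98 to 161 d, 1 of 8 members was more than 2-fold higher, ssc-miR-181c, beside 8.1% of 506 names, and 0 were below 0.5-fold, beside 9.09%. The median was 1.54 for the members and 1.03 for all names. Here both arms were higher at the later age, the 5p sum by 1.58-fold (1.56 to 1.61) and the 3p sum by 1.89-fold (1.79 to 2.00). Scaled by TMM, a trimmed mean of fold changes, ssc-miR-181c stood at 1.99, and by CPM at 1.67, so that it was no longer past 2-fold.

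From 63 to 161 d, 4 of 7 members were more than 2-fold higher, beside 12.2% of 482 names, and 0 were below 0.5-fold, beside 13.5%. These 4 were ssc-miR-181c, hsa-miR-181c-3p, hsa-miR-181a-3p and mdo-miR-181a-2-3p, and they were also past 2-fold with CPM and with TMM. The median was 2.47 for the members and 1.01 for all names. The 3 members inside 2-fold were ssc-miR-181a, ssc-miR-181b at 0.900 (0.863 to 0.939) and ssc-miR-181d-5p at 0.844 (0.690 to 1.04). The 5p sum stood at 1.03 (1.01 to 1.04), or 0.921 with CPM, and the 3p sum at 2.53 (2.35 to 2.73).

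**Figure D2:**
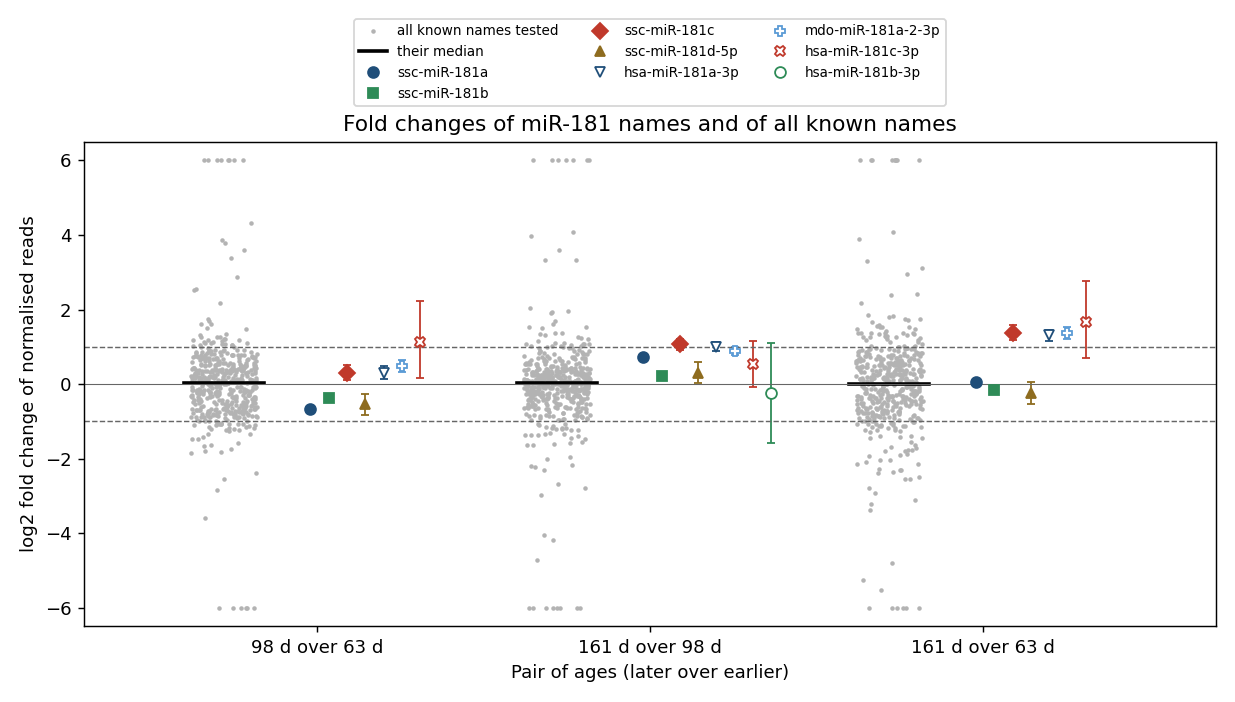
log2 fold change of normalised reads, later over earlier age, for all known names with a mean of at least 10 reads in the pair (grey points, black bar at their median) and for the miR-181 names (filled symbols 5p, open symbols 3p, bars 95% intervals of counting error). Dashed lines mark 2-fold, and grey points at the upper and lower ends were past the axis or absent from 1 library. In the pair of 63 and 161 d, 4 miR-181 names lie above the upper dashed line and 3 near 0.

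Shares within a library do not depend on the scaling of the libraries. The 3p reads made up 3.16% of the miR-181a reads of both arms in the library of 63 d (2.96 to 3.37), 6.47% in that of 98 d (6.21 to 6.74) and 7.40% in that of 161 d (7.15 to 7.66). This corresponds to 30.7, 14.5 and 12.5 reads of the 5p arm for each read of the 3p arm. The intervals of the 3 ages did not overlap, and the larger step lay between 63 and 98 d.

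The arms of the other members were less clear. For miR-181c the 3p share was 3.99% (2.24 to 6.99), 6.88% (5.18 to 9.08) and 4.83% (3.67 to 6.35), with overlapping intervals. For miR-181b it was 0.103% (0.0400 to 0.264), 0.286% (0.176 to 0.465) and 0.229% (0.128 to 0.409), lower than for miR-181a in each library. Over the whole family the 3p share was 2.78% (2.60 to 2.96), 5.57% (5.35 to 5.80) and 6.59% (6.36 to 6.81).

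The 3p share of the mir-181a hairpins was compared with that of the minor arm of other hairpins. In all, 76 hairpins had at least 100 reads of both arms together and at least 10 of the minor arm in every library. From 63 to 161 d the minor share changed by a median ratio of 0.975 over the 76 hairpins, and 9 of them had a ratio above 1.5. The ratio was 2.40 for mir-181a-2 (3.22% to 7.72%) and 2.29 for mir-181a-1 (3.08% to 7.05%), the 3rd and the 4th highest of the 76. From 63 to 98 d these hairpins had ratios of 2.17 and 1.92, ranked 2nd and 4th, with a median of 0.906 over all hairpins. From 98 to 161 d the ratios were 1.10 and 1.19, near the median of 1.05. Hairpin mir-181c had ratios of 1.73, 0.703 and 1.21 in the pairs of 63 and 98 d, 98 and 161 d, and 63 and 161 d. No hairpin of miR-181b or miR-181d met the read minimum. Since the files split the joint 5p reads of the mir-181a hairpins between them, the shares of these 2 hairpins are not independent of each other.

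**Figure D3:**
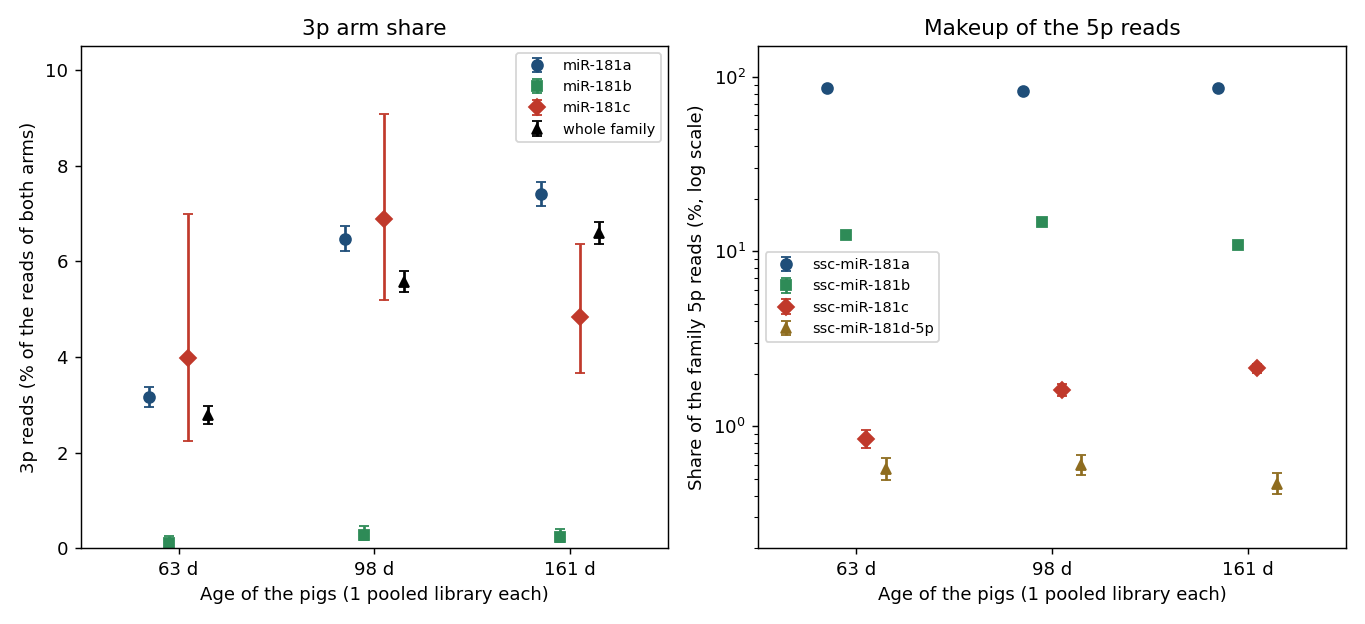
Left, 3p reads as a percentage of the reads of both arms for miR-181a, miR-181b, miR-181c and the whole family in the libraries of 63, 98 and 161 d. Right, the share of each porcine name in the 5p reads of the family (log axis), with 95% Wilson intervals of counting error in both panels. The 3p share of miR-181a was 3.16%, 6.47% and 7.40%, and the share of ssc-miR-181c among the 5p reads was 0.847%, 1.62% and 2.14%.

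**Figure D4:**
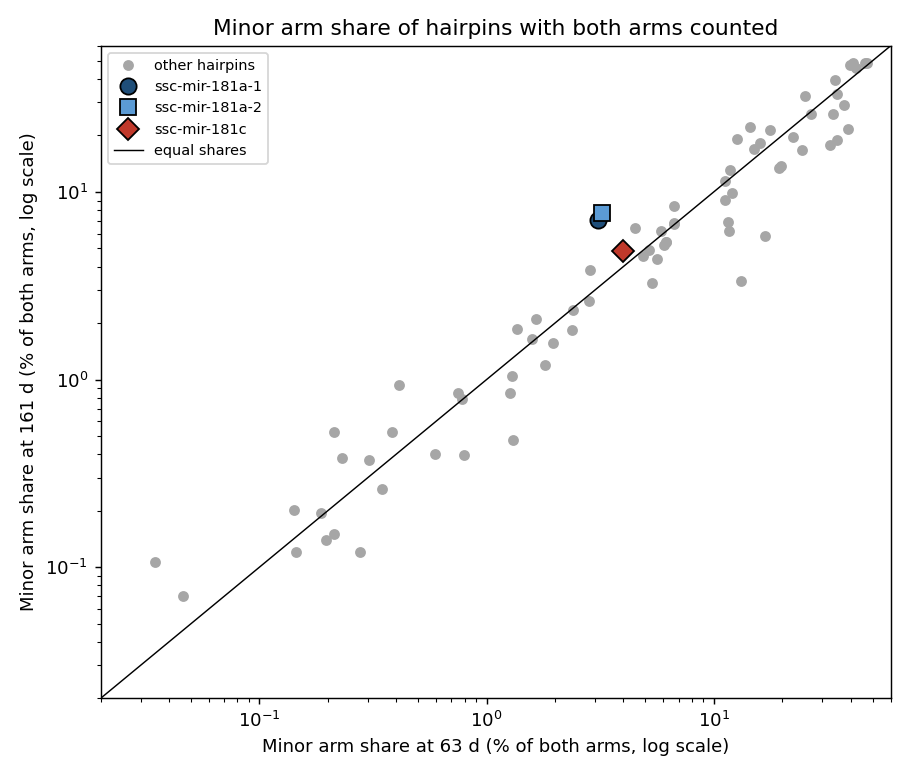
Minor arm share at 161 d against that at 63 d (both log axes, percentage of the reads of both arms) for 76 hairpins, with the line of equal shares. Hairpins mir-181a-1 and mir-181a-2 lie above the line at 7.05% against 3.08% and at 7.72% against 3.22%, and mir-181c lies nearer to it.

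The makeup of the 5p reads, which share a seed, also differed with age. ssc-miR-181a made up 86.2% (85.8 to 86.6), 83.0% (82.6 to 83.4) and 86.5% (86.2 to 86.8) of them in the order of age. ssc-miR-181b made up 12.4% (12.0 to 12.8), 14.8% (14.4 to 15.2) and 10.9% (10.6 to 11.2). At 98 d the share of ssc-miR-181a lay below, and that of ssc-miR-181b above, the intervals of both other ages.

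ssc-miR-181c made up 0.847% (0.751 to 0.955), 1.62% (1.49 to 1.75) and 2.14% (2.01 to 2.28) of the 5p reads, and ssc-miR-181d-5p 0.569% (0.491 to 0.659), 0.601% (0.527 to 0.683) and 0.468% (0.410 to 0.537). The share of ssc-miR-181c had no overlap between ages, and the intervals of ssc-miR-181d-5p overlapped between all ages. For each read of ssc-miR-181d-5p there were 1.49, 2.69 and 4.57 reads of ssc-miR-181c, although their hairpins are neighbours. The counts of ssc-miR-181d-5p include parts of isoform reads shared with other hairpins, so these ratios do not compare the neighbouring hairpins alone. For each read of ssc-miR-181c there were 102, 51.3 and 40.4 reads of ssc-miR-181a. For each read of ssc-miR-181b there were 6.95, 5.61 and 7.96 reads of ssc-miR-181a.

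The representative read of ssc-miR-181a had 23 bases, 1 fewer than the known sequence at the 3′ end, and made up 58.6%, 59.8% and 63.8% of the reads of the name. ssc-miR-181b had the same length, and its representative read made up 35.1%, 36.1% and 36.5%. The representative read of ssc-miR-181c was 1 base longer than the known sequence and made up 47.5%, 48.6% and 49.6%. ssc-miR-181d-5p had a representative read of 24 bases at 63 and 98 d and of 23 bases at 161 d. Its copies numbered 71, 91 and 74, so that few reads decided between these forms.

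Among the 3p names, the representative read made up 80.5%, 84.1% and 86.3% of hsa-miR-181a-3p and 72.2%, 77.4% and 77.1% of mdo-miR-181a-2-3p. For the scarce hsa-miR-181c-3p it made up 54.5%, 75.6% and 75%, and for hsa-miR-181b-3p at most 3 copies lay behind it. Reads with a mapping error made up 18.8 to 19.9% of ssc-miR-181b, 6.63 to 8.58% of ssc-miR-181a, 3.77 to 5.61% of ssc-miR-181c and 17.1 to 18.4% of all known names. For ssc-miR-181d-5p this share was 9.64%, 11.3% and 18.7% in the order of age. Every read of mdo-miR-181b-5p carried a mapping error.

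The labelled tissue was checked with miRNAs known from muscle and from other cell types of muscle, under any species prefix. All 7 muscle fibre markers were listed, led by miR-133a-3p, and their summed level was 982546, 784393 and 1133860 normalised reads. The lower sum at 98 d was carried by miR-133a-3p and miR-486, since the other 5 of the 7 were higher at 98 d than at 63 d. Among these miR-1 stood at 24860 and 56519 normalised reads at 63 and 98 d, and miR-208b at 1076 and 2032. No marker of any list was at 0 in any library.

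The other lists took their own courses. The 7 markers of lymphoid and myeloid cells, in which miR-181a is also known, summed to 3976, 5571 and 4289 normalised reads, and the 2 red blood cell markers to 1725, 2822 and 2555. The 2 endothelial names, from miR-126, summed to 11708, 17431 and 15123. The sums of these 3 lists were highest at 98 d, where ssc-miR-181a was lowest. Of the 7 lymphoid and myeloid markers, 4 were highest at 98 d, miR-223 and miR-146b were highest at 161 d, and miR-150 was highest at 63 d. The 3 smooth muscle names, from miR-143 and miR-145, summed to 18868, 21167 and 60940, and 2 of them were more than 2-fold higher at 161 d than at 98 d. That list was highest at 161 d, as were ssc-miR-181c, hsa-miR-181a-3p and mdo-miR-181a-2-3p. The part of these cell types in the miR-181 values was not tested.

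The names with the course most like that of ssc-miR-181a and ssc-miR-181c were found among 227 names outside the family with at least 100 reads in every library. Likeness was the Euclidean distance between log2 normalised reads, each centred on its own mean over the 3 libraries, so that 3 points set each course. Nearest to ssc-miR-181a were ssc-miR-7134-3p (distance 0.14, with 1776, 970 and 1689 normalised reads), ppy-miR-133a (0.15, with 1429, 1032 and 1590) and ssc-miR-133a-3p (0.18, with 868318, 645293 and 983657). All 3 were lowest at 98 d, which follows from their choice by likeness and is no separate result. ppy-miR-133a and ssc-miR-133a-3p are both names of miR-133a.

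Nearest to ssc-miR-181c were ssc-miR-885-5p (distance 0.22, with 229, 349 and 640 normalised reads), ssc-miR-143-3p (0.34, with 17893, 20432 and 59295) and ssc-miR-29a (0.43, with 806, 910 and 1406). All 3 were higher at each later age, which likewise follows from their choice.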

How the data were processed

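For each age (63, 98 and 161 d) 1 small RNA library was sequenced from the pooled psoas major RNA of 6 pigs. The authors made 1 file per library with the ACGT101-miR v4.2 pipeline (LC Sciences), which filtered reads by adapter, length and other RNA classes and aligned them with miRBase hairpins and the pig genome. The copies of the representative read of a row are deposited as counts, without normalisation. Expected counts, summed over the isoforms of an arm, are deposited beside them, likewise without normalisation, and where a read fitted more than 1 hairpin the authors' pipeline gave each a part of it. Per the file headers these reads are also split into reads without and with mapping error, values of the same kind that the closing section uses as another measure.

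The expected counts were summed over the hairpin rows of a name, where the name is the text before the first _ sign. In the 63 d file, 139 further hairpin rows had a blank name and took the name above them. Libraries were scaled by the median of ratios over 424 names with at least 10 reads in every library. Expected counts were rounded to whole numbers for the intervals, which are at the 95% level (exact Clopper-Pearson of the conditional binomial for fold changes, Wilson for shares). The lowest level read as detected was 3 reads, equal to 4.11, 2.21 and 2.99 normalised reads. With 1 library per age no p-value was computed. A call was a fold change above 2 or below 0.5 in names with a mean of at least 10 reads over the pair. The fold and call code was tested on simulated data.

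All members of the rule were named, together with the 3 nearest names to ssc-miR-181a and to ssc-miR-181c. The members, the marker lists and the tests were chosen with earlier results of these data known. Alternatives of scaling were TMM and CPM, over all reads listed or without the names miR-133a and miR-133a-3p under any species prefix. Further alternatives were the copies of the representative read, reads without mapping error, the hairpin row with most reads, and other limits on fold and counts. The names written in lower case with p3, 0.8, 3 and 0.8 reads at 63, 98 and 161 d, did not meet the rule. Predicted candidates were left out, and known names held 99.7, 99.8 and 99.8% of the reads. Python 3.11.15 with numpy 2.4.6, pandas 2.3.3 and scipy 1.17.1, R 4.3.3 with edgeR 4.0.16 for TMM factors and matplotlib 3.10.9 were used.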

Additional observations from a re-analysis of the deposited data

How the results depend on the processing

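No paired analysis was possible because each age had 1 library, and for the same reason no replicate could be left out. With CPM, the median fold change of all names stood at 0.19, -0.29 and -0.15 on the log2 scale from 63 to 98 d, 98 to 161 d and 63 to 161 d, and 67.8%, 23.5% and 37.0% of the names past 2-fold were higher, against 51.1%, 47.1% and 47.6% in the report. TMM gave 55.2%, 36.5% and 46.0%. The fold change of the 5p sum in these pairs was 0.729, 1.26 and 0.921 with CPM, and 0.681 and 1.499 with TMM in the first 2. With CPM without the miR-133a and miR-133a-3p names of any prefix it was 1.44 and 0.932 in the last 2. With the copies of the representative read it was 0.663, 1.74 and 1.15. With reads without mapping error it was 1.05 from 63 to 161 d. Its direction from 63 to 161 d thus depended on the scaling, as did that of ssc-miR-181a (1.03 against 0.925), and so did that of ssc-miR-181b (1.16 against 0.929) and ssc-miR-181d-5p (1.23 against 0.984) from 98 to 161 d, in each case with CPM. Of 66 member fold changes under 3 alternatives, 63 kept their direction and 64 their side of 2-fold.

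Members past the limit numbered 2 and 4 with a limit of 1.5-fold from 63 to 98 d and 98 to 161 d, beside 46.6% and 35.0% of all names past that limit in either direction. With a minimum of 1 count they numbered 5 of 11 and 2 of 11, beside 37.3% and 33.8%. With a minimum of 100 mean counts 0 of 6 were past it from 63 to 98 d, beside 12.3%, and from 98 to 161 d 0 of 8 were with CPM, beside 20.2%, and with TMM, beside 16.8%. The share of ssc-miR-181a in the 5p reads at 63, 98 and 161 d was 91.0%, 88.6% and 91.4% with copies and 84.8%, 81.1% and 84.3% with the hairpin row with most reads. The 3p share of miR-181a was 4.08%, 8.50% and 9.28% with copies, and 6.08%, 12.1% and 13.7% with the row with most reads, which drops the 5p reads of the other hairpin. With reads without mapping error, an alternative chosen after seeing the data, it was 3.10%, 6.52% and 7.47%. The share of mir-181a-1 by copies in the report was likewise chosen after seeing the data. The depth limits the 3p names of miR-181b and miR-181c, at 48 reads or fewer.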
